A study of Peromyscus californicus with 17 samples.

Results

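The 8 genes Fasn, Acly, Acaca, Srebf1, Elovl1, Lpcat1, Pcyt1a and Chka belong to the pathway by which the lung makes the lipid of surfactant. They were taken by symbol from a table of 27786 genes, and all 8 were found there. The table holds lung transcript levels of 17 male P. californicus (stock IS, 12 to 15 months old, described as genetically diverse), a monogamous deer mouse, from 1 RNA-seq library per animal. Bonded males (B1 to B6, n = 6) had lived with a mate for about 4 months. Bond-disrupted males (BD1 to BD6, n = 6) had been paired for the same time and were then separated, and their lungs were collected on day 7. The paper states that its bond-disrupted serum donors lived alone after separation, and does not give the housing of the males used for lung. Loss of the mate and a change of housing therefore cannot be told apart in bond-disrupted against bonded lungs. Virgin males (V2 to V6, n = 5) were of similar age and shared cages as a group (of 3, per the labels), so that bonding history and group housing cannot be told apart in any comparison with virgins. The comparisons ask whether forming or losing a pair bond goes with a different level of these transcripts in the lung.

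Pulmonary surfactant is a film of lipid and protein that lowers surface tension in the alveoli, and type 2 alveolar cells make, store and secrete it. Its main lipid is dipalmitoylphosphatidylcholine. Citrate is cleaved to acetyl-CoA by ATP citrate lyase (Acly), acetyl-CoA is carboxylated to malonyl-CoA by acetyl-CoA carboxylase (Acaca), and fatty acid synthase (Fasn) joins these units into palmitate, while Srebf1 encodes the transcription factor that switches on these enzymes. Choline kinase (Chka) and the rate-limiting enzyme of the choline route (Pcyt1a) prepare the choline head group, and the acyltransferase Lpcat1 places palmitate onto lysophosphatidylcholine to give the saturated form typical of surfactant. Elovl1 elongates saturated fatty acids to very long chains.

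The deposited FPKM values (the fragments mapped to a gene, scaled to a gene of 1 kilobase and a library of 1000000 fragments) could not be compared between animals as they stood. In the first column each gene had been divided by the length of the gene 1 row above it, and in each later column by the length of the gene 1 row further up. The count behind each value and the length that had divided it were therefore solved from the table, and FPKM was computed again with each gene's own length, which is the scale of all levels below unless stated. For the 8 members the solved own lengths ran from 1485 bases (Elovl1) to 9637 bases (Acaca), while the lengths that had divided them ran from 104 to 18387 bases. The deposited value was therefore 0.117 to 34.6 times the value with own length.

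**Figure D1:**
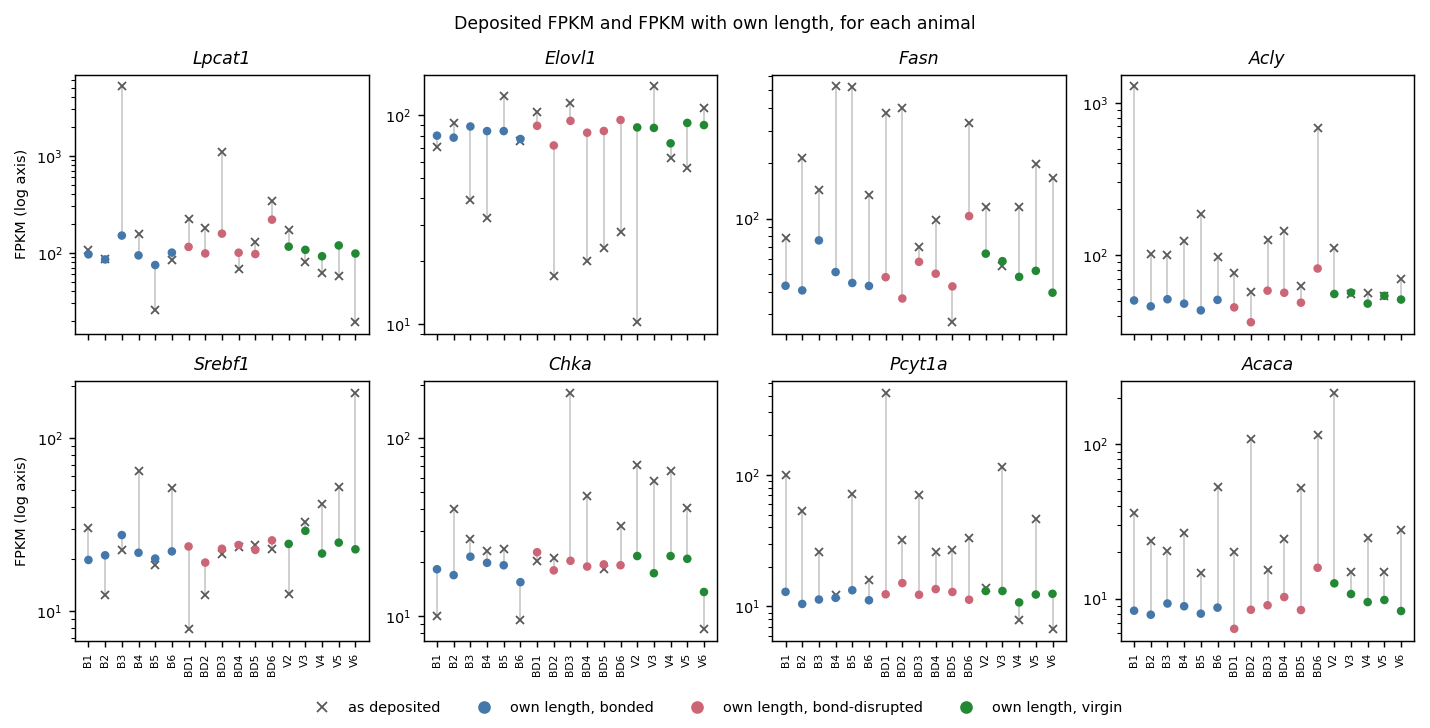
Deposited FPKM (crosses) and FPKM with own length (coloured points) of the 8 members in each of the 17 animals, on log axes, with a grey line joining the pair. The deposited values of Lpcat1 span 19.2 to 5200 FPKM, against 74.7 to 219 FPKM with own length.

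Lpcat1 in B3 gave the clearest case. Its 18451 fragments had been divided by a length of 104 bases, which made a deposited value of 5200 FPKM, whereas its own length of 3598 bases gave 150 FPKM. In V6, 7922 fragments of the same gene had been divided by 18387 bases and stood at 19.2 FPKM as deposited, against 98.1 FPKM with own length. The coefficient of variation of Lpcat1 over the 17 animals was 261% as deposited and 30.6% with own length. For Elovl1 it was 63.6% and 8.06%, for Pcyt1a 154% and 9.47%, and for Acly 158% and 18.2%.

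Depth, in units of 1000000 fragments, was 15.4 to 34.1 (median 22.0), with B3 the deepest library, and the 8 members were counted with 779 (Chka in B1) to 22577 fragments (Fasn in B3). Poisson counting gave 0.162% of the variance between animals for Fasn and at most 8.84% for Pcyt1a, so most of the spread in each member was spread between libraries. The lowest count, 779 fragments, corresponds to 18.3 FPKM with a 95% exact Poisson interval of 17.05 to 19.6 FPKM, which covers counting error only. The tissue label held: Sftpc, the surfactant protein that defines type 2 cells, ranged from 12001 to 27993 FPKM, and Ager, a type 1 alveolar cell gene, from 1128 to 2336 FPKM. In bulk lung, fewer cells of a type and less RNA per cell cannot be told apart.

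Of the enzymes that make palmitate, Fasn and Acly stood at like levels and Acaca well below them. Fasn reached 40.6 FPKM at the lowest, 43.8 at the median and 76.0 at the highest in bonded lungs, and 36.7, 49.0 and 103 FPKM in bond-disrupted lungs. The 5 virgins had 64.4, 58.6, 48.1, 51.9 and 39.4 FPKM of Fasn. B3 and BD6 stood above the other animals of their groups, and all 3 groups overlapped.

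Acly was held in a narrow band in bonded lungs, from 43.4 to 51.3 FPKM with a median of 49.2, and in virgins, with 55.5, 56.8, 48.0, 54.1 and 51.1 FPKM. In bond-disrupted lungs it reached from 36.2 (BD2) through a median of 52.7 to 81.7 FPKM (BD6), so that this group held both the lowest and the highest of the 17 values. Acaca ran from 7.87 to 9.31 FPKM in bonded lungs (median 8.56) and from 6.38 (BD1) to 15.9 FPKM (BD6) in bond-disrupted lungs (median 8.77). The virgins had 12.6, 10.7, 9.51, 9.81 and 8.32 FPKM of Acaca. For each of these enzymes the largest value came from BD6, at 2.15 times the median of the other 16 animals for Fasn, 1.79 times for Acaca and 1.61 times for Acly.

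Srebf1, their transcriptional regulator, varied less, from 19.1 FPKM (BD2) to 29.1 FPKM (V3). Its medians were 21.4 FPKM in bonded and 23.3 FPKM in bond-disrupted lungs, and the 5 virgins had 24.5, 29.1, 21.5, 24.9 and 22.8 FPKM. BD6 was only the third highest animal for Srebf1, with 25.6 FPKM, behind V3 and B3 (27.5 FPKM).

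Elovl1 was the steadiest member, with 77.0 to 88.4 FPKM in bonded lungs (median 82.0) and 71.7 to 94.99 FPKM in bond-disrupted lungs (median 86.6). The virgins had 87.5, 87.1, 73.4, 92.0 and 89.8 FPKM of Elovl1, with V4 below the other 4.

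The enzymes of the choline branch showed no high animal of the kind seen for Fasn. Chka lay between 15.5 and 21.6 FPKM in bonded lungs (median 18.8) and between 18.0 and 22.8 FPKM in bond-disrupted lungs (median 19.4). In virgins it was 21.7, 17.4, 21.7, 21.0 and 13.6 FPKM, and the lowest of all 17 values was that of V6. Pcyt1a lay between 10.5 and 13.3 FPKM in bonded lungs (median 11.5), between 11.3 and 15.1 FPKM in bond-disrupted lungs (median 12.6), and at 13.1, 13.1, 10.7, 12.3 and 12.5 FPKM in virgins. BD6 had the lowest Pcyt1a of its group, and BD2, the animal with the lowest Fasn, Acly, Srebf1 and Elovl1 of all 17, had the highest Pcyt1a.

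Lpcat1 had the widest range of the members, 2.94-fold between its lowest and highest animal. It ran from 74.7 (B5) to 150 FPKM (B3) in bonded lungs with a median of 95.1, and from 96.9 (BD5) to 219 FPKM (BD6) in bond-disrupted lungs with a median of 107. The 5 virgins had 116, 107, 92.0, 119 and 98.1 FPKM. The 3 highest animals were BD6, BD3 (157 FPKM) and B3, and the remaining 14 lay between 74.7 and 119 FPKM.

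**Figure D2:**
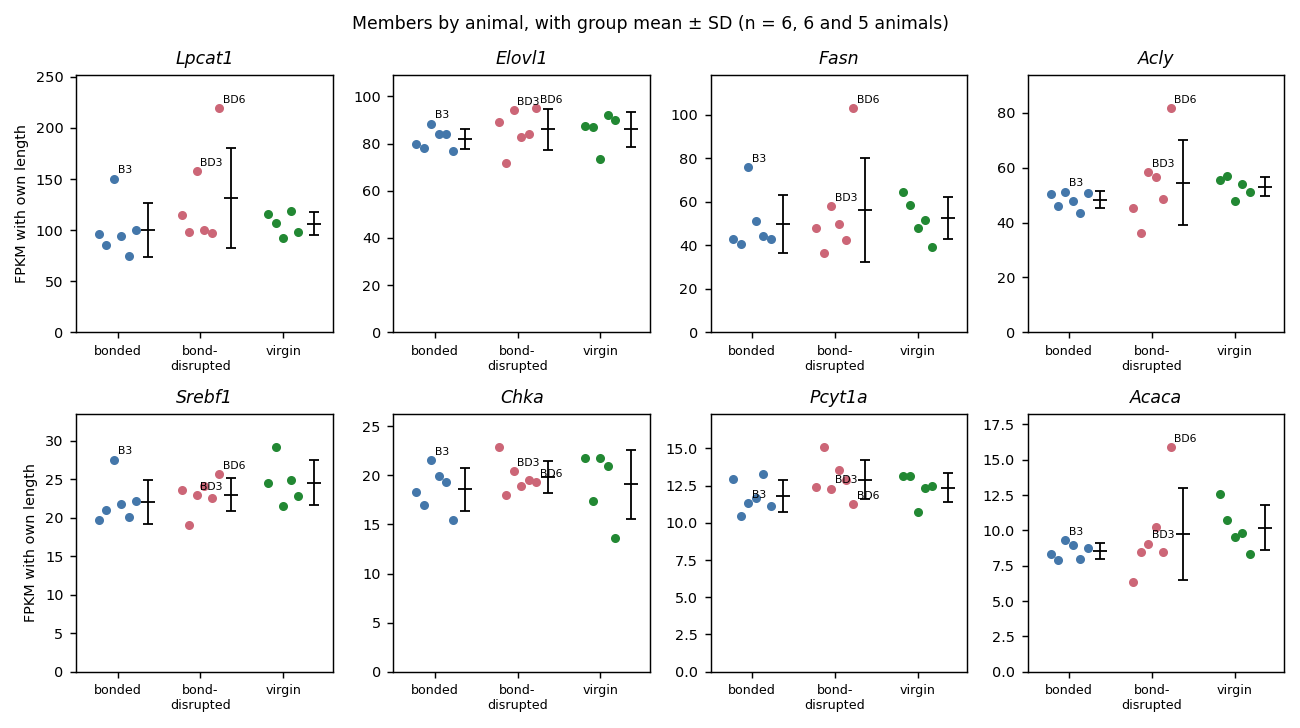
FPKM with own length of each member in each animal (1 point per animal, axes from 0) beside the group mean ± SD of 6 bonded, 6 bond-disrupted and 5 virgin animals, with B3, BD3 and BD6 named. BD6 is the highest animal for Lpcat1 (219 FPKM), Fasn (103 FPKM), Acly (81.7 FPKM), Acaca (15.9 FPKM) and Elovl1 (94.99 FPKM), and the groups overlap for all 8 members.

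By the mean level per length over 17 animals, Lpcat1 was first (113 ± 34.6 FPKM, SD), followed by Elovl1 (84.6 ± 6.82), Fasn (52.9 ± 16.3), Acly (51.9 ± 9.46), Srebf1 (23.1 ± 2.68), Chka (19.2 ± 2.40), Pcyt1a (12.4 ± 1.17) and Acaca (9.45 ± 2.13). Lpcat1 lay above 96.7% and Acaca above 54.1% of the means of the 14644 genes tested. Neighbours in this order were compared within animals by exact two-sided sign-flip permutation tests adjusted over 7 pairs. Lpcat1 was above Elovl1 in 16 of 17 animals, by a geometric mean of 1.29-fold (adjusted p = 0.00011). Fasn and Acly could not be ordered, with Fasn above Acly in 9 of 17 animals and a ratio of 0.997 (adjusted p = 0.94). The other neighbours differed in 16 or 17 of 17 animals, with ratios of 1.21 (Srebf1 over Chka) to 2.23 (Acly over Srebf1) and an adjusted p of at most 0.00039 in each of these exact tests.

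In the comparison of bond-disrupted with bonded lungs no member was called. A gene was called where limma on log2(FPKM + 1) gave a change of 2-fold or more with an adjusted p below 0.1, and 0 of the 14644 genes tested (0%) met it, while 867 genes (5.92%) and 0 members had an unadjusted p under 0.05. The estimates of all 8 members were above 0, from 0.06 for Srebf1 to 0.35 for Lpcat1 (median 0.12, against 0.01 for all genes tested). Lpcat1 averaged 131 ± 48.9 FPKM (SD, n = 6) after disruption and 100.1 ± 26.2 FPKM (SD, n = 6) in bonded lungs. Its log2 fold change was 0.35 ± 0.19 (SE), with a 95% interval of -0.06 to 0.76 and an adjusted p of 0.86 in limma. The study uses the animals' numbers for siblings or cousins, and in a count chosen after seeing the data Lpcat1 was higher in the bond-disrupted animal in 6 of 6 pairs with the same number, as were 333 of the 14644 genes tested (2.27%). For the other 7 members this held in 2 (Fasn) or 4 of 6 pairs. With the number as a block, Lpcat1 was at 0.35 ± 0.18 (SE) with an adjusted p of 0.85 in limma. Without BD6 the Lpcat1 estimate was 0.19 ± 0.16 (SE), and those of Fasn and Acaca turned from 0.13 to -0.06 and from 0.13 to -0.01. That of Acly fell from 0.13 to 0.005 without BD6, and an additive fit of the length effect turned Pcyt1a from 0.12 to -0.006. Without B3 the estimate of Lpcat1 was 0.47 ± 0.18 (SE), with a 95% interval of 0.08 to 0.86, an unadjusted p of 0.020 and an adjusted p of 0.77 in limma.

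In virgin against bonded lungs 0 members and 0 of 14644 genes (0%) were called, and 524 genes (3.58%) and 0 members had an unadjusted p under 0.05. The estimates of all 8 members were again above 0, from 0.02 for Chka to 0.22 for Acaca (median 0.10, against 0.01 for all genes tested). Chka fell below 0 (to -0.03 at the lowest) without B6, V2, V4 or V5, and an additive fit of the length effect turned Fasn to -0.04 and Pcyt1a to -0.003. This comparison and the previous one share the 6 bonded animals, so that their directions are not independent. Acaca, the enzyme that commits acetyl-CoA to fatty acids, averaged 10.2 ± 1.59 FPKM (SD, n = 5) in virgins and 8.54 ± 0.559 FPKM (SD, n = 6) in bonded lungs, a log2 fold change of 0.22 ± 0.15 (SE) with an adjusted p of 1.0 in limma. Srebf1 averaged 24.5 ± 2.89 FPKM (SD, n = 5) against 22.0 ± 2.83 FPKM (SD, n = 6), a log2 fold change of 0.15 ± 0.10 (SE). With 1 animal left out the Srebf1 estimate ran from 0.09 (without V3) to 0.21 (without B3), the latter at an unadjusted p of 0.027 and an adjusted p of 1.0 in limma.

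In virgin against bond-disrupted lungs 0 members and 0 of 14644 genes (0%) were called, and 611 genes (4.17%) and 0 members had an unadjusted p under 0.05. The estimates of 3 members were above 0 and those of 5 below, from -0.24 for Lpcat1 to 0.09 for Acaca (median -0.02, against 0.00 for all genes tested). Without BD6 the Lpcat1 estimate was -0.07 and that of Acaca 0.23 ± 0.11 (SE), the latter at an unadjusted p of 0.0497 and an adjusted p of 0.93 in limma. The 24 intervals of the 3 comparisons together ran from -0.67 to 0.76, so that none reached a fold change of 2 on the log2(FPKM + 1) scale. The groups overlapped for every member in every comparison. Over the genes tested, the first group lay wholly above the second for 0.15%, 0.321% and 0.157% of genes in the 3 comparisons in the order given, and wholly below it for 0.13%, 0.15% and 0.123%. In limma-voom on the recovered fragments 0 members and 0 genes were called as well, and 0 members had an unadjusted p under 0.05.

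**Figure D3:**
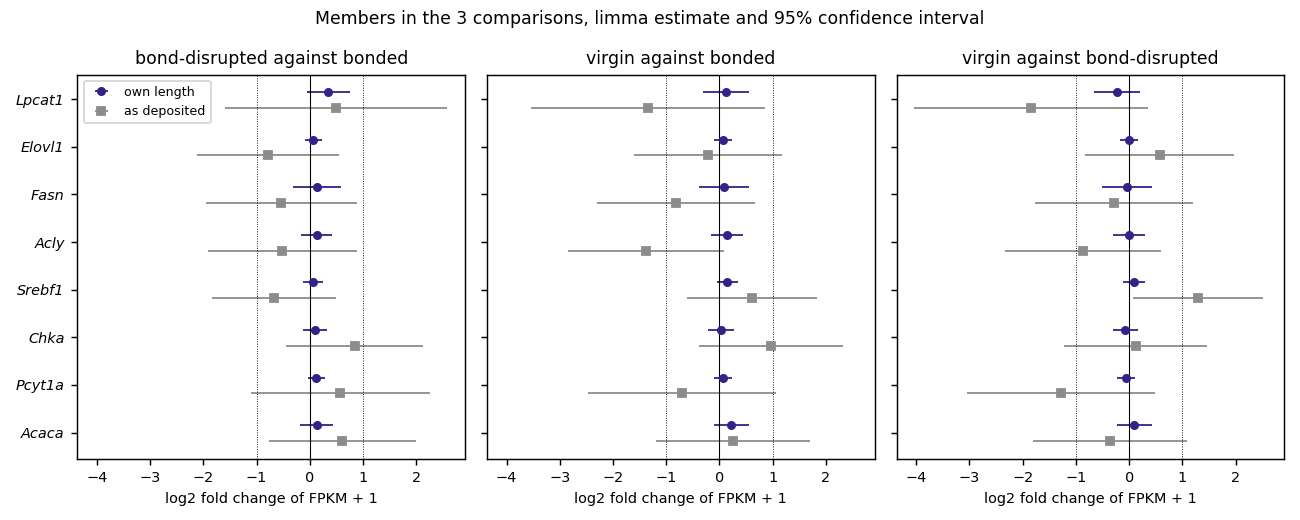
Log2 fold changes of FPKM + 1 for the 8 members in the 3 comparisons, with 95% confidence intervals from limma, for values with own length (circles) and as deposited (squares). Dotted lines mark a fold change of 2. The intervals with own length stay between -0.67 and 0.76, and those of the deposited values reach from -4.04 to 2.59.

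As deposited, the same animals gave other estimates. For Lpcat1 in virgin against bond-disrupted lungs the log2 fold change was -1.84 ± 1.04 (SE), and for Acly in virgin against bonded lungs it was -1.39 ± 0.69 (SE), where own lengths gave -0.24 and 0.13. For Srebf1 in virgin against bond-disrupted lungs it was 1.30 ± 0.58 (SE), with an unadjusted p of 0.039 and an adjusted p of 0.70 in limma, where own lengths gave 0.09. No member was called from the deposited values in any comparison, beside 40 of 18602 genes (0.215%) in bond-disrupted against bonded, 113 (0.607%) in virgin against bonded and 35 (0.188%) in virgin against bond-disrupted lungs. Of the 24 estimates, 13 had the opposite sign as deposited.

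Most pairs among 6 of the 8 members were correlated across the 17 animals. Pearson's r was computed on log2(FPKM + 1) for all 28 pairs, with 100000 permutations and adjustment over the 28. Adjusted p was under 0.05 for 13 pairs by Pearson's r, and each of these was also under 0.05 by Spearman's rho. All 13 were among the 15 pairs of Fasn, Acly, Acaca, Srebf1, Elovl1 and Lpcat1, and none held Pcyt1a or Chka. The 2 pairs of these 6 genes that did not pass were Acaca with Srebf1 (r = 0.50, adjusted permutation p = 0.08, though rho = 0.65 passed at 0.015) and Acaca with Elovl1 (r = 0.34, adjusted permutation p = 0.32, rho = 0.26). The closest were Fasn with Lpcat1 (r = 0.85, adjusted permutation p = 0.0024, rho = 0.67) and Fasn with Acly (r = 0.81, adjusted permutation p = 0.0024, rho = 0.70).

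BD6 bore on these relations to unequal degree. Without that animal, a setting chosen after seeing the data, 3 pairs were under an adjusted permutation p of 0.05 by Pearson's r, namely Fasn with Srebf1 (r = 0.77), Fasn with Lpcat1 (r = 0.71) and Acly with Srebf1 (r = 0.68), against 12 pairs by Spearman's rho. Acaca with Lpcat1 was at r = 0.62 with all animals and at 0.25 without BD6, and Fasn with Acly at 0.81 and 0.61. Other pairs kept about the same r and missed at an adjusted permutation p of 0.056, namely Srebf1 with Lpcat1 (0.58 and 0.59), Srebf1 with Elovl1 (0.64 and 0.61), Acly with Elovl1 (0.67 and 0.62) and Elovl1 with Lpcat1 (0.65 and 0.59). With the 2 animals farthest from the median of the first gene left out of each pair, 8 pairs stayed under 0.05, while Fasn with Lpcat1 was at r = 0.58 (adjusted permutation p = 0.059). On deviations from the group means 13 pairs passed, with r = 0.88 for Fasn and Lpcat1 (adjusted permutation p = 0.00056). Pcyt1a was at r = -0.30 to -0.03 with the other 7 members and Chka at -0.03 to 0.42, none past the threshold by Pearson's r, though Fasn with Chka passed by Spearman's rho (0.56, adjusted permutation p = 0.039).

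**Figure D4:**
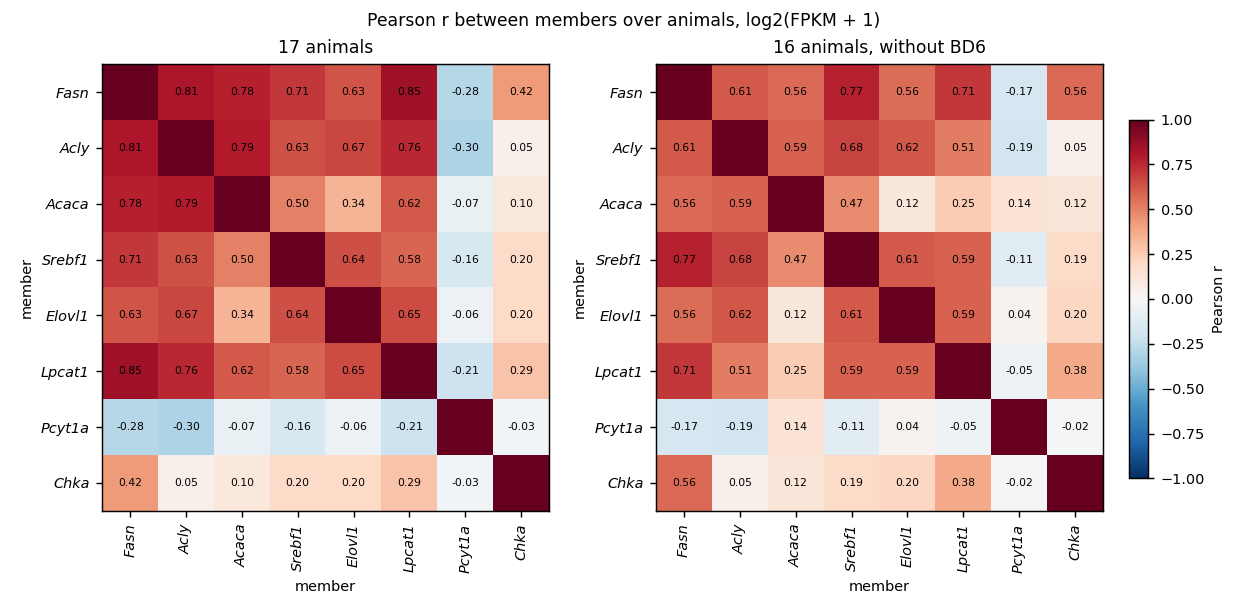
Pearson r between the members on log2(FPKM + 1), over 17 animals (left) and over 16 animals without BD6 (right), on a colour scale from -1 to 1. Values among the first 6 genes are mostly lower without BD6 (0.85 and 0.71 for Fasn and Lpcat1) but higher for Srebf1 with Fasn (0.71 and 0.77), Acly (0.63 and 0.68) and Lpcat1 (0.58 and 0.59), and the values of Pcyt1a lie between -0.30 and 0.14 in both panels.

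Markers of type 2 cells were set beside the members. Of the 10 listed markers 8 could be summed, and the sum, mostly Sftpc and then Sftpb and Sftpd, ran from 15703 to 26497 FPKM in bonded, 15834 to 33559 FPKM in bond-disrupted and 18902 to 31343 FPKM in virgin lungs, with 0 markers at 0 in any animal. Elovl1 followed this sum most closely (r = 0.89, adjusted permutation p = 0.00032 over 16 relations, rho = 0.85, adjusted permutation p = 0.0008), and did so also, in settings chosen after seeing the data, without BD6 (r = 0.87), without the 2 animals farthest on the marker axis (r = 0.85) and on deviations from group means (r = 0.89). By Pearson's r, Fasn (r = 0.62) and Lpcat1 (r = 0.61) were both at an adjusted permutation p of 0.045, which rose to 0.21 for each without BD6 (r = 0.50 and 0.49) and to 0.07 on deviations from group means, where r was about as large (0.61 and 0.57). Without the 2 farthest animals Lpcat1 passed (r = 0.71, adjusted permutation p = 0.017) and Fasn did not (r = 0.55, adjusted permutation p = 0.12). By Spearman's rho, neither Fasn (0.59, adjusted permutation p = 0.08) nor Lpcat1 (0.55, adjusted permutation p = 0.1) passed. Acly (r = 0.58, adjusted permutation p = 0.06) and Srebf1 (r = 0.55, adjusted permutation p = 0.074) missed the threshold with r close to those of Fasn and Lpcat1, and Chka (r = 0.41), Acaca (r = 0.24) and Pcyt1a (r = -0.15) missed it as well. The type 2 marker Sftpb had estimates above 0, as the members did, in both comparisons with bonded lungs, with means of 2312 ± 361 FPKM (SD, n = 6) in bonded, 3109 ± 471 FPKM (SD, n = 6) in bond-disrupted and 3049 ± 561 FPKM (SD, n = 5) in virgin lungs. Its log2 fold changes were 0.43 ± 0.14 and 0.39 ± 0.14 (SE), above those of any member, with adjusted p of 0.81 and 1.0 in limma (unadjusted 0.0061 and 0.014). Of the 3 highest type 2 markers Sftpb had the largest estimates. Sftpc was at 0.17 ± 0.20 and 0.05 ± 0.20 (SE), and Sftpd at 0.01 ± 0.19 and 0.08 ± 0.20 (SE). BD6 had the highest sum of type 2 markers, 33559 FPKM, and the part of type 2 cells in its high values, or in the direction of the members, was not tested.

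**Figure D5:**
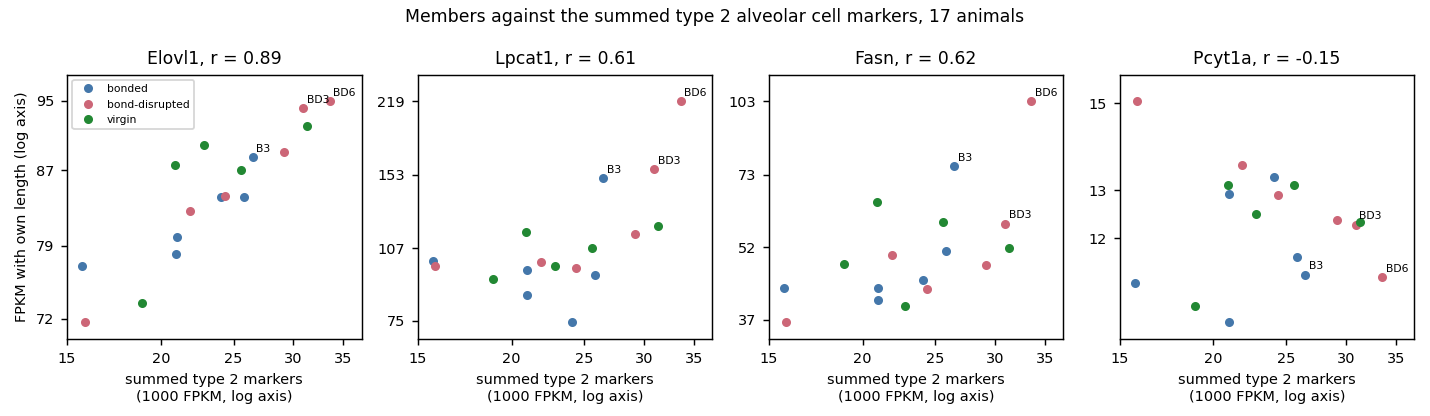
FPKM with own length of Elovl1, Lpcat1, Fasn and Pcyt1a against the summed FPKM of 8 type 2 alveolar cell markers in 17 animals, on log axes, coloured by group. Elovl1 rises with the sum in all groups (r = 0.89), BD6 and B3 lie high for Fasn and Lpcat1, and Pcyt1a shows no such rise (r = -0.15).

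Fat also expresses the fatty acid enzymes strongly, so fat markers were examined. The sum of 9 white fat markers ran from 79.4 to 113 FPKM in bonded, 89.1 to 135 FPKM in bond-disrupted (highest in BD6) and 77.6 to 135 FPKM in virgin lungs, of which Cfd made up most (mean 97.2 FPKM), with Lipe and Plin4 next. The markers of this list differed widely in level. Plin1, Cidec, Lep, Retn and Pck1 were under 1 FPKM in all 17 animals, and Adipoq reached 2.51 FPKM (B5) at most. Cfd, by contrast, ran from 72.2 to 129 FPKM and was highest in BD6. The part of fat in the members' values was not tested. None of the 8 relations with the white fat sum passed, with r from -0.27 to 0.37. Without BD6 they moved for Lpcat1 from 0.37 to 0.09, for Acly from 0.36 to 0.07, for Fasn from 0.29 to -0.03 and for Acaca from 0.23 to -0.12, and without the 2 farthest animals they were at 0.56 for Acly and 0.53 for Acaca, with none past the threshold in either setting. The 5 brown fat markers, led by Cidea, Ppargc1a and Dio2, summed to 2.38 to 4.95 FPKM, and Ucp1 stayed under 1 FPKM in every animal. The sum of 5 of 8 macrophage markers, led by Marco, Cd68 and Mrc1, ran from 85.3 to 235 FPKM in bonded, 48.0 to 252 FPKM in bond-disrupted and 77.3 to 175 FPKM in virgin lungs, with B3 and BD3 the highest of their groups and BD6 at 206 FPKM. Marco, most of that sum, was highest in BD3 (183 FPKM), while Mrc1 (43.5 FPKM, mean 15.5) and Cd68 (64.99 FPKM, mean 34.4) were highest in BD6. Siglec1 and Fabp1 of that list were under 1 FPKM in all animals.

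BD6 was not the highest animal for the sums of the remaining 4 cell types. Fibroblast markers, led by Dcn, Tcf21 and Col1a2, summed to 788 FPKM in BD6, the lowest of the 17 animals, and reached 1454 FPKM in BD2. Type 1 alveolar cell markers, led by Ager, Hopx and Cav1, ran from 2036 (B6) to 4251 FPKM (BD1), with BD6 at 2463 FPKM, the lowest of its group. Airway markers, nearly all Scgb1a1 with Scgb3a2 and Foxj1 next, ran from 49417 (B3) to 172955 FPKM (V6). Cardiac muscle markers, led by Myl7, Tnnt2 and Actc1, ran from 41.2 (B3) to 426 FPKM (B6). The part of these cell types, macrophages included, in the members' values was not tested.

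The genes whose levels were most like those of Fasn over the 17 animals, among 13070 genes with a mean of at least 1 FPKM, were Slc16a6 (r = 0.92), Galnt6 (0.91), F5 (0.91), Hk2 (0.90) and Wdfy4 (0.89). All 5 were highest in BD6, and without BD6 their r was 0.82 to 0.88. Of the members, Lpcat1 came nearest to Fasn, at place 39. For Lpcat1 the 5 were Nek6 (r = 0.91), Stat3 (0.89), Clint1 (0.89), LOC128108058 (0.89) and LOC128113212 (0.87), again all highest in BD6, with r of 0.73 to 0.85 without it. Fasn was at place 12 of the genes most like Lpcat1, Acly at 106, Elovl1 at 429, Acaca at 592, Srebf1 at 757, Chka at 2905 and Pcyt1a at 8551.

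The rest of the pathway was read from 7 lists of 103 genes, of which 100 were in the table, 94 had all values recovered and 90 were tested. Scd, Scd1 and Scd2 were not in the table. Slc25a1, Agpat3, Agpat5, Cept1, Lpcat4 and Prdx6 were not recovered and so not tested. Prdx6 is the gene the paper names as the most upregulated in its lung data. No tested gene of these lists was called in any comparison. In bond-disrupted against bonded lungs 7 had an unadjusted p under 0.05 with higher and 2 with lower values, in virgin against bonded 3 and 1, and in virgin against bond-disrupted 0 and 5, with a lowest adjusted p of 0.81, 0.93 and 0.94 in limma. Over all 14644 genes tested the same counts were 415 higher and 452 lower, 314 and 210, and 310 and 301 (5.92%, 3.58% and 4.17% in both directions together). Higher after disruption were Me1, Lpl, Chpt1, Lpin2, Pnpla2, Ptdss1 and Hacd2, with log2 fold changes of 0.18 (Ptdss1) to 0.94 (Lpl), and lower were Chkb (-0.33) and Pla2g1b (-1.37). Against bonded lungs, virgins had more Elovl5 (0.25), Slc44a2 (0.23) and Me1 (0.22) and less Hacd1 (-0.43), and against bond-disrupted lungs less Hacd1, Lpl, Agpat4, Fads2 and Chpt1, from -0.65 (Lpl) to -0.22 (Agpat4). These genes other than Me1, Lpl, Chkb, Elovl5, Hacd1 and Agpat4 are named by a count made after seeing the data, and none of the differences passed adjustment. The median log2 fold change of the 90 genes was 0.05, 0.02 and -0.03, against 0.01, 0.01 and 0.00 for all genes tested.

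Fatty acid synthesis, elongation and desaturation was led by Tecr (122.7 ± 9.63 FPKM, SD over 17 animals), which completes each round of elongation, Me1 (108.3 ± 16.6 FPKM), the malic enzyme that supplies NADPH, and Elovl5 (90.2 ± 13.96 FPKM), which elongates polyunsaturated fatty acids. Me1 had the lowest p of all pathway genes in bond-disrupted against bonded lungs. It ran from 88.0 through a median of 92.2 to 105 FPKM in bonded and from 107 through 123 to 138 FPKM in bond-disrupted lungs, so that the groups did not overlap. The 5 virgins lay between 91.4 and 125 FPKM. The log2 fold change of Me1 was 0.37 ± 0.09 (SE), with an unadjusted p of 0.00073 and an adjusted p of 0.81 in limma. In that comparison 22 of 14644 genes (0.15%) were higher in every bond-disrupted animal than in any bonded one. Pnpla2, the triglyceride lipase of lipid droplets, was the other such pathway gene and is named here after its values were seen (50.2 to 55.7 FPKM in bonded and 56.6 to 114 FPKM in bond-disrupted lungs, log2 fold change 0.36 ± 0.14, SE).

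Genes of lipid uptake and storage were led by the fatty acid transporter Cd36 (235 ± 45.95 FPKM) and the fatty acid binding proteins Fabp5 (134 ± 62.6 FPKM) and Fabp4 (84.1 ± 40.2 FPKM). Lpl, the lipase that frees fatty acids from circulating triglyceride, was chosen by its p and ran from 25.6 to 80.6 FPKM in bonded (median 48.9), 71.0 to 101 FPKM in bond-disrupted (median 89.6) and 38.9 to 83.5 FPKM in virgin lungs. Its log2 fold change was 0.94 ± 0.26 (SE) in bond-disrupted against bonded and -0.65 ± 0.27 (SE) in virgin against bond-disrupted lungs, with adjusted p of 0.81 and 0.94 in limma. Hacd1, a dehydratase of elongation, had the lowest p of the 90 pathway genes in both comparisons with virgins and averaged 3.95 ± 0.381 FPKM (SD, n = 6) in bonded, 3.42 ± 0.329 FPKM (SD, n = 6) in bond-disrupted and 2.68 ± 0.407 FPKM (SD, n = 5) in virgin lungs. Its log2 fold change was -0.43 ± 0.08 (SE) against bonded and -0.27 ± 0.08 (SE) against bond-disrupted lungs, with adjusted p of 0.93 and 0.94 in limma.

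The glycerolipid backbone list was led by the lipid phosphatases Plpp1 (191 ± 39.7 FPKM) and Plpp3 (109.6 ± 22.7 FPKM) and by the acyltransferase Agpat1 (54.6 ± 4.99 FPKM). Agpat4 of that list was among the lowest p in virgin against bond-disrupted lungs, with a log2 fold change of -0.22 ± 0.09 (SE). The head group list was led by the choline transporter-like genes Slc44a2 (54.3 ± 6.80 FPKM) and Slc44a1 (20.3 ± 2.38 FPKM), with Chpt1, which completes phosphatidylcholine, between them (32.0 ± 5.16 FPKM). Chkb, the second choline kinase, was among the lowest p in bond-disrupted against bonded lungs with 15.4 ± 2.01 FPKM (SD, n = 6) against 19.5 ± 2.23 FPKM (SD, n = 6), a log2 fold change of -0.33 ± 0.10 (SE) and an adjusted p of 0.81 in limma, while its paralog Chka was at 0.09 ± 0.11 (SE). Phosphatidylglycerol and phosphatidylinositol synthesis was led by Cdipt (66.8 ± 8.54 FPKM), Cds1 (35.6 ± 6.96 FPKM) and Cds2 (32.2 ± 5.17 FPKM), and 0 of its 8 genes had an unadjusted p under 0.05 in any comparison.

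Of the genes that remodel phospholipid, Lpcat3 (19.8 ± 4.71 FPKM), the secreted phospholipase Pla2g1b (12.1 ± 8.47 FPKM, from 0.855 FPKM in BD2 to 26.5 FPKM in B4) and the lysosomal phospholipase Pla2g15 (10.5 ± 2.58 FPKM) were the highest of the 9 tested, and all were below Lpcat1 (113 ± 34.6 FPKM). Among genes that control lipogenesis, Insig1 (77.9 ± 9.69 FPKM), which holds SREBP in the endoplasmic reticulum, Cebpb (75.7 ± 13.5 FPKM) and the liver X receptor Nr1h2 (50.5 ± 4.84 FPKM) were the highest, and 0 of the 13 tested had an unadjusted p under 0.05 in any comparison.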

How the data were processed

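The authors made directional RNA-seq libraries from lung RNA and deposited FPKM for 27786 genes, 1 column per animal and 0 columns of no sample. The submitters' processing notes name FastQC, Trim Galore 0.4.5, STAR 2.7.2, SAMtools 1.5, featureCounts and Subread 1.5.3. The build is not given in the sources used here. All gene names match RefSeq symbols of ASM782708v3.

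Depths and lengths were solved by search for those that turn the deposited FPKM into multiples of 0.5 fragment (98.4% of 336755 values within 0.015 fragment). Of 27787 lengths 25986 were solved, and 24606 genes had all values. Of 1488 small RNA lengths, 1471 equalled RefSeq. Genes reaching 1 FPKM in any animal were tested by limma 3.58.1 (R 4.3.3) on log2(FPKM + 1), two-sided, 3 groups in one fit, Benjamini-Hochberg adjusted. Other steps used Python 3.11.15. On simulated data for bond-disrupted against bonded lungs (14546 genes tested), 94% of 100 genes changed by 2 on the log2 scale and 20% of 100 changed by 1 were called, with 0 unchanged genes. For virgin against bond-disrupted lungs these shares were 92% and 18%, with 3 unchanged genes called. A change of 1 lies at the fold limit of the call rule, and its median estimate was 0.87 of the true change in bond-disrupted against bonded lungs. The simulation drew each gene and animal independently, without kinship or correlated genes. Its shares therefore need not hold for the real data. 

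Members and lists were chosen with earlier results of these data known. Named were all members, the 3 highest genes of each list, the 3 lowest p per comparison over the pathway lists, any called gene, and the 5 genes most like Fasn and Lpcat1. The replicates were separate animals, some of them siblings or cousins across groups, so that not all are independent by descent. The alternatives were another pseudocount (0.1), no filter, a filter on the mean, a trend in limma, the groups compared alone, quantile normalization, median-ratio factors, a replicate block, an adjusted p below 0.05, an additive length fit, voom on fragments, the deposited values, and leaving out each animal. The other 3180 genes entered no test with own lengths.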

Additional observations from a re-analysis of the deposited data

Results flagged for a closer look

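Within each group the highest and lowest animal was set against the others by Dixon's test, for 24 groups of member values and 24 groups of summed markers. It marked 6 values. Chance marks about 1 in 20 independent groups, but these groups share animals and several members are correlated, so the count cannot be set against that rate. Fasn in BD6 stood at 103 FPKM, with the other 5 bond-disrupted animals at 36.7 to 58.1 FPKM. B3 stood apart from the other 5 bonded animals for 3 members, with 76.0 FPKM of Fasn (others 40.6 to 51.1), 27.5 FPKM of Srebf1 (others 19.8 to 22.1) and 150 FPKM of Lpcat1 (others 74.7 to 100.3). Elovl1 in V4 was at 73.4 FPKM, below the other 4 virgins at 87.1 to 92.0 FPKM. The summed brown fat markers of BD4 were at 2.38 FPKM, below the other 5 bond-disrupted animals at 3.00 to 3.35 FPKM.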

How the results depend on the processing

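No member was called under any of the 12 other settings or with any animal left out, and of 288 estimates under those settings 266 kept their sign. Part of this was fixed in advance. The 2 changes of filter, the trend, the groups compared alone and the stricter adjusted p cannot change an estimate. The block cannot change one in bond-disrupted against bonded lungs, and a stricter adjusted p cannot add a call. Of all genes, 40, 113 and 35 were called as deposited (in bond-disrupted against bonded, virgin against bonded and virgin against bond-disrupted lungs), and 0 or 1 with an animal left out (1 in each of the first and second comparisons without B4). As deposited, the log2 fold changes turned to -0.53 (Fasn), -0.52 (Acly), -0.68 (Srebf1) and -0.79 (Elovl1) in bond-disrupted against bonded, to -0.82 (Fasn), -1.39 (Acly), -0.22 (Elovl1), -1.35 (Lpcat1) and -0.70 (Pcyt1a) in virgin against bonded, and to -0.87 (Acly), -0.36 (Acaca), 0.58 (Elovl1) and 0.12 (Chka) in virgin against bond-disrupted lungs; here the divisors were those of other genes. An additive fit of the length effect, which solves no counts, gave -0.0059, -0.0030 and 0.0029 for Pcyt1a in these comparisons, -0.0445 for Fasn in virgin against bonded and 0.10 for Elovl1 in virgin against bond-disrupted lungs. In the last comparison median-ratio factors gave -0.014 for Acly and quantile normalization 0.061 for Elovl1; the cause of these turns was not tested. Of 16 pairs of animals that share a number across groups, 7 had correlated deviations (r over 0.1, range -0.37 to 0.43). All 6 pairs of bonded and bond-disrupted animals were above 0, and 7 of 17 animals correlated best with their own number. The study uses the numbers for siblings or cousins, which the labels do not explain, and such correlations cannot decide kinship. The main fits did not pair the samples by number, so kinship was left out of them. The fit with the number as a block called 0 members and 0 genes and turned Acly to -0.010 and Elovl1 to 0.0016 in virgin against bond-disrupted lungs.

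With 1 animal left out, the estimates that crossed 0 ran from -0.014 to 0.225 (Acaca) and -0.058 to 0.258 (Fasn) in bond-disrupted against bonded, from -0.025 to 0.134 (Chka) in virgin against bonded, and from -0.143 to 0.151 (Fasn), -0.101 to 0.129 (Acly), -0.0042 to 0.234 (Acaca), -0.051 to 0.055 (Elovl1) and -0.119 to 0.040 (Chka) in virgin against bond-disrupted lungs. The number of member pairs past the threshold fell from 13 to 8 without the 2 animals farthest on the x axis and to 3 without BD6 (from 15 to 12 by Spearman's rho). Without those 2 animals r turned to 0.33 (Acly and Pcyt1a), -0.030 (Acly and Chka), 0.048 (Acaca and Pcyt1a), -0.053 (Acaca and Chka) and 0.13 (Elovl1 and Pcyt1a), and without BD6 to 0.14 (Acaca and Pcyt1a) and 0.038 (Elovl1 and Pcyt1a). Without BD6 r also turned to -0.08 for Acaca with type 2 markers. The 3 relations with type 2 markers fell to 2 (Elovl1 and Lpcat1) without the 2 farthest animals, to 1 without BD6 and to 1 on deviations from group means, where r of Fasn and Lpcat1 was 0.61 and 0.57. Counting error gave at most 8.84% of any member's variance. Whether the members' values go with depth was not tested, and B3, the deepest library, had the highest bonded values of Fasn, Srebf1 and Lpcat1.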

Other observations

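Taken animal by animal, V2 was above the median of the 17 animals for all 8 members and B2 for none of them. BD6 was the highest animal for 5 members and among the 3 highest for 6, with Pcyt1a and Chka the exceptions. BD2 was among the 2 lowest animals for 4 members and the highest for Pcyt1a.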
